A study of Mus musculus with 12 samples.

Results

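Tubulins and the enzymes that modify them are described here in mouse choroid plexus across 4 ages. The members are the 43 gene symbols of the deposited table that name an alpha-, beta-, gamma-, delta- or epsilon-tubulin, a tubulin tyrosine ligase-like enzyme (Ttll), a cytosolic carboxypeptidase of the Agbl family, or one of Ttl, Vash1, Vash2, Svbp, Atat1 and Hdac6. They were chosen by symbol among 52459 in the table, and 2 pseudogene symbols were dropped. By role there were 7 alpha-tubulin genes, 8 beta-tubulin genes, 4 genes of gamma-, delta- and epsilon-tubulin, 13 Ttll genes, 5 Agbl genes, 4 genes of the tyrosination cycle (Ttl, Vash1, Vash2 and Svbp) and 2 of acetylation (Atat1 and Hdac6). Agtpbp1, a deglutamylase, and Tubal3 fall outside the symbols used.

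The choroid plexus is an epithelium over a vascular stroma in the brain ventricles and secretes cerebrospinal fluid. The 4 groups are whole choroid plexus of B6 mice, dissected in the embryo (labelled E12.5), at birth (P0), in the young postnatal animal (P14) and in the adult of 6 months (A6m). Each age had 3 libraries of mRNA sequencing. Foxj1 mutant tissue was not analysed here. Values are TPM, a measure of transcript abundance. They are scaled to transcript length and sum to the same total in every library, so the sequencing depth behind a value is unknown. The labels speak of independent specimens, without naming animals, litters or sexes. P-values measure the spread between these libraries. The tissue is bulk, so fewer cells of a type and less RNA per cell cannot be told apart in any value below.

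Microtubules are hollow polymers of alpha- and beta-tubulin dimers. Isotypes of each subunit are encoded by separate genes and differ mostly in the acidic tail at the end of the protein, which lies on the outside of the microtubule. Enzymes add and remove glutamates or glycines on these tails, cut the last tyrosine from alpha-tubulin and put it back, and acetylate a lysine of alpha-tubulin inside the tube. Cilia are rich in such modified tubulin, and choroid plexus epithelial cells carry tufts of cilia on the surface that faces the ventricle.

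The ends of the coding sequences are shown because they encode the tails in which the isotypes differ, for 2 alpha- and 5 beta-tubulin genes. Each run is the last 60 coding bases before the stop codon on GRCm38, read 5′ to 3′ in the sense of the gene from GENCODE M21, with the last codon in capitals.
Tuba4a, chr1:75215625-75215684, minus strand: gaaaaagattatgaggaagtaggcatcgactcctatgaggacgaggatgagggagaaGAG
Tuba8, chr6:121226017-121226076, plus strand: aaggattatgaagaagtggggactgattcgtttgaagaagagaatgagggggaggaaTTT
Tubb4b, chr2:25222311-25222370, minus strand: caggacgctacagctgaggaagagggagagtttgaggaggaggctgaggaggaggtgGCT
Tubb5, chr17:35834985-35835044, minus strand: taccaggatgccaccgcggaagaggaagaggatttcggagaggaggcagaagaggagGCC
Tubb2a, chr13:34074471-34074530, minus strand: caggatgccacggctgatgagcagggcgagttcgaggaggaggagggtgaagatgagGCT
Tubb2b, chr13:34127474-34127533, minus strand: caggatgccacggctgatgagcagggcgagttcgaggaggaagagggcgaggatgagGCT
Tubb3, chr8:123421620-123421679, plus strand: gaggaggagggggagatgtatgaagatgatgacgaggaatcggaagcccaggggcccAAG

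Tuba4a ended in a glutamate codon (GAG) and Tuba8 in TTT, where Tuba3a and Tuba3b ended in a tyrosine codon. Codon 40, the lysine that Atat1 acetylates, encoded lysine in Tuba3a, Tuba3b and Tuba4a and alanine in Tuba8. Of the last 20 codons, 10 were glutamate codons in Tubb4b, 9 in Tubb5 and 8 in Tuba4a, Tuba8, Tubb2a, Tubb2b and Tubb3. The coding sequences of Tubb2a and Tubb2b were 96.5% identical and those of Tuba3a and Tuba3b 97.0%. Tuba1a and Tuba1b are also close copies, so the division of reads within each of these pairs is uncertain.

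The tissue matched its label in all libraries, since 10 choroid plexus epithelial markers such as Ttr, Aqp1 and Folr1 summed to 12866 to 23751 TPM at E12.5 and to 148565 to 195058 at the later ages. As deposited, 9 of the 10 rose from E12.5 to P0 and 6 from E12.5 to A6m, where 18.6% and 15.2% of all genes rose. With scaling all 10 rose from E12.5 to A6m, beside 35.4% of all genes. From P0 to P14, 4 rose and 4 fell as deposited, beside 5.33% and 53.5%. Aqp1 averaged 189 TPM at E12.5, 654 at P0 and 176 at A6m. Summed markers of erythroid cells, endothelium, fibroblasts and macrophages fell with age alongside most members. The sums were 55662 to 62718, 347 to 393, 1003 to 1337 and 118 to 149 TPM at E12.5. At A6m they were 149 to 564, 22.3 to 35.1, 166 to 237 and 13.9 to 23.1. Of 6 tested fibroblast markers, 5 fell and 1 rose from E12.5 to A6m, where 62.0% and 15.2% of all genes did. Mean Dcn, a fibroblast marker, went from 43.9 to 114 TPM. Mean Hbb-bs, an erythroid marker, went from 1415 TPM at E12.5 to 4382 at P0 and 129 at A6m. Of 8 tested markers of neural progenitors and glia, 5 fell and 2 rose from E12.5 to A6m (4 and 2 with scaling); mean Fabp7 went from 158 to 2.25 TPM and Nes from 59.4 to 0.673, whereas Aldh1l1 went from 2.34 to 48.5 and Gfap from 0.277 to 8.21. These 10 markers summed to 204 to 371 TPM at E12.5 and 65.7 to 70.2 at A6m. The part of these cells in the values of members was not tested. Xist, the RNA of the inactive X chromosome, was 148 to 155 TPM in the A6m libraries, 0.430 to 0.808 at P0 and P14, and 139, 0.389 and 89.5 at E12.5. Y-linked Ddx3y was 0.122 to 0.366 at A6m, 80.1 to 117 at P0 and P14, and 9.26, 54.4 and 50.9 at E12.5. Replicates 1 and 3 of E12.5 thus held both transcripts. Sex and age cannot be told apart in comparisons of A6m with P0 or P14, and the levels of both transcripts also differed between E12.5 and each later age. E12.5 replicate 2 held the highest sum of neuron markers of all libraries, 155 TPM, where replicates 1 and 3 of that age held 30.2 and 75.6, and the values of Tubb3, Tubb2b and Tuba1a are given with and without it below.

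Most tested members were lower at P0 than at E12.5. Within the tubulin pools, Tubb4b came to make up most of beta-tubulin, and Tuba1c and Tuba4a gained share in alpha-tubulin. Of the 43 members, 37 reached the level for testing, which was at least 1 TPM in at least 3 of the 12 libraries. The other 6 were Agbl1, Ttll2, Ttll10, Tuba3a, Tuba3b and Tuba8. Tubb1 and Ttll8 reached it through E12.5 alone, so a lower value at the other ages followed from the choice. In the test over all 17422 genes (limma on log2(TPM + 1), Benjamini-Hochberg adjusted p under 0.05), 3 members were higher and 30 lower at P0 than at E12.5, where 18.6% of all genes were called higher and 43.7% lower. From P0 to P14, 3 members rose and 23 fell, beside 5.33% and 53.5% of all genes. From P14 to A6m, 5 rose and 9 fell, beside 8.78% and 12.1%. From E12.5 to A6m, 3 rose and 30 fell, beside 15.2% and 62.0%, and the median difference was -1.18 over the tested members and -0.71 over all genes. Without Tubb1 and Ttll8, 28 of 35 members were lower at P0 than at E12.5. At A6m 28 were lower than at E12.5, but not all of them the same members. Tuba4a was lower at P0 and higher at A6m, and Ttll3 was called lower at A6m only. Without the same pair 21 were lower at P14 than at P0, with no change in the other counts.

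The TPM of a library have a fixed sum, and the share held by its most abundant genes grew with age. The 10 genes with the highest mean took 14.4% to 19.4% of all TPM at E12.5, then 31.6% to 33.2% at P0, 40.3% to 43.2% at P14 and 40.2% to 41.6% at A6m. Median-of-ratios scaling, which sets each library by its typical gene, moved the median of all genes from -0.71 to -0.01 between E12.5 and A6m, from -0.27 to -0.02 between E12.5 and P0, and from -0.41 to 0.00 between P0 and P14. With this scaling 4 members were higher and 23 lower at P0 than at E12.5 (29.0% and 31.0% of all genes), and 8 were higher and 10 lower at P14 than at P0 (22.7% and 19.8%). From P14 to A6m, 7 were higher and 11 lower with scaling (15.2% and 14% of all genes). In the same way 9 were higher and 23 lower at A6m than at E12.5 (35.4% and 35.8%). Without Tubb1 and Ttll8, 21 of 35 members were lower with scaling at P0 than at E12.5. At A6m 21 were also lower than at E12.5 with scaling, but not all of them the same members. The other scaled counts did not change. All 23 members lower at A6m with scaling were also lower as deposited, and Agbl3 and Agbl4 were called in opposite directions on the 2 scales.

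**Figure D1:**
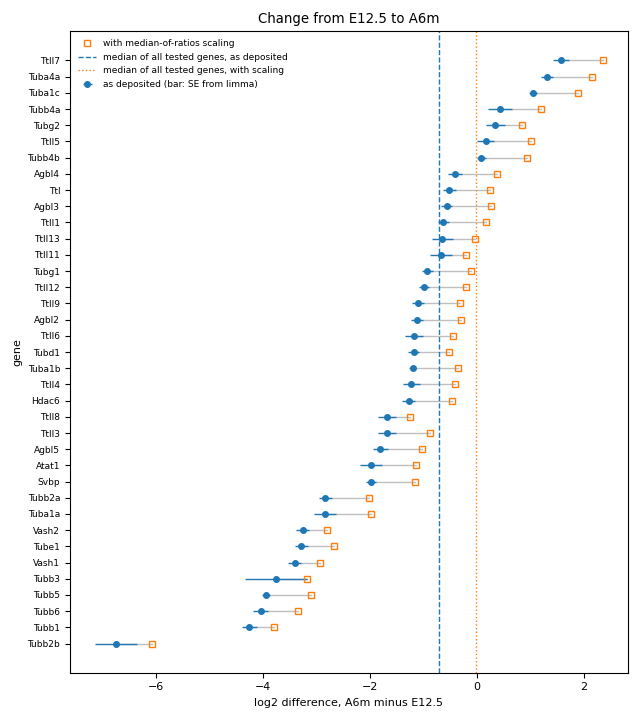
Difference between A6m and E12.5 for the 37 tested members, on the log2(TPM + 1) axis, as deposited (filled points, bars are limma standard errors) and with median-of-ratios scaling (open squares). Ttll7, Tuba4a and Tuba1c were called higher on both scales, and 23 members were called lower on both. Among the 23 are Tubb1 and Ttll8, which entered the test through E12.5 alone.

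Tuba1a, the main alpha-tubulin of young neurons and a gene mutated in lissencephaly, was the most abundant member at E12.5 and fell from there. Its values were 1176, 2263 and 1227 TPM at E12.5, 425, 372 and 410.2 at P0, 275, 343 and 312 at P14 and 209, 205 and 207 at A6m. E12.5 replicate 2 stood far above the other E12.5 libraries, and no 2 consecutive ages overlapped. The log2 difference was -1.88 (SE 0.20, adjusted p = 1.30e-05) from E12.5 to P0 and -2.83 (SE 0.20, adjusted p = 1.92e-07) from E12.5 to A6m. With scaling these were -1.60 and -1.98. The steps from P0 to P14, -0.38 (adjusted p = 0.130), and from P14 to A6m, -0.57 (adjusted p = 0.0715), were not called. With scaling these steps were 0.14 and -0.52 and again not called. Tuba1b, the broadly expressed alpha-tubulin, had 928, 986 and 893 TPM at E12.5, 486, 463 and 499.9 at P0, 453, 476 and 514 at P14 and 419.9, 396 and 406 at A6m. It was lower at all later ages without overlap, with a log2 difference of -1.20 (SE 0.06, adjusted p = 1.94e-08) from E12.5 to A6m, and P0 and P14 overlapped. With scaling that difference was -0.34 (adjusted p = 0.0102), and Tuba1b was higher at P14 than at P0, by 0.51 (adjusted p = 0.00233).

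Tuba1c and Tuba4a rose over the same interval. Tuba1c, another broadly expressed alpha-tubulin, had 48.9, 39.7 and 43.9 TPM at E12.5, 75.5, 81.2 and 78.1 at P0, 99.6, 95.1 and 103 at P14 and 94.0, 87.5 and 95.4 at A6m. The E12.5 libraries lay below all others, P14 and A6m overlapped, and the log2 difference from E12.5 to A6m was 1.05 (SE 0.08, adjusted p = 2.16e-07). Tuba4a, whose transcript encodes no terminal tyrosine and whose product is also found in muscle and platelets, had 27.0, 28.4 and 25.9 TPM at E12.5, 19.5, 14.04 and 16.8 at P0, 46.0, 52.0 and 56.0 at P14 and 70.1, 69.9 and 67.0 at A6m. It first fell, and then the order P0, E12.5, P14, A6m held without overlap. The log2 difference was 1.56 (SE 0.11, adjusted p = 2.40e-06) from P0 to P14 and 1.32 (SE 0.11, adjusted p = 5.81e-07) from E12.5 to A6m, and both rises held with scaling, at 2.06 and 2.15. Tuba3a and Tuba3b, testis isotypes, stayed at or under 0.405 TPM in every library, and Tuba3b was listed at 0 in 8 of 12. Tuba8 had 0.930, 0.873 and 0.847 TPM at E12.5 and at most 0.373 in later libraries.

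**Figure D2:**
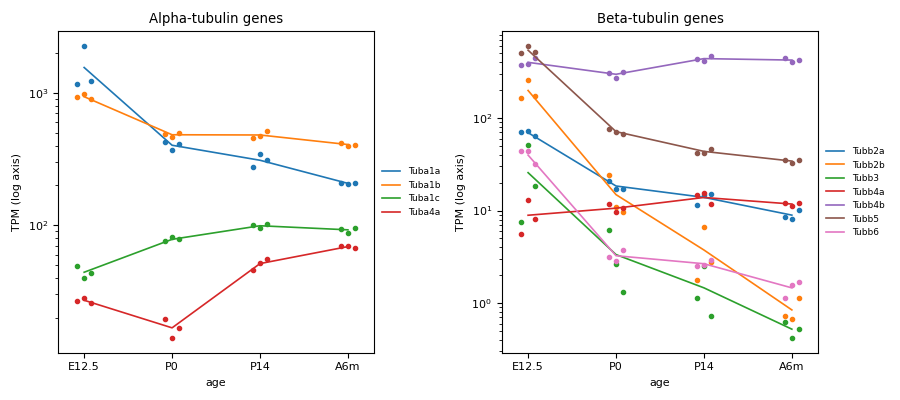
TPM of 4 alpha-tubulin genes and 7 beta-tubulin genes by age, on log axes; points are libraries and lines join the means of 3 libraries. Tuba1c climbs to P14 and Tuba4a climbs after a low at P0, Tuba1a falls, and Tubb4b stays between 274 and 465 TPM as deposited, although with scaling it was higher at A6m than at E12.5 by 0.94, while Tubb5, Tubb2a, Tubb2b, Tubb3 and Tubb6 fall.

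Tubb4b, the beta-tubulin of cilia that many other cells also express, did not differ between E12.5 and A6m by the test on the deposited scale and was higher at A6m with scaling, while Tubb5, Tubb2a and Tubb2b fell on both. Its values were 373, 382 and 447 TPM at E12.5, 305, 274 and 314 at P0, 439.8, 415 and 465 at P14 and 441, 407 and 424 at A6m. P0 lay below the other ages, E12.5 overlapped with P14 and A6m, and the log2 difference from E12.5 to A6m was 0.09 (SE 0.08, adjusted p = 0.366). With scaling that difference was 0.94 (adjusted p = 1.47e-06). Tubb5, the beta-tubulin of most dividing cells, had 502, 603 and 521 TPM at E12.5, 76.7, 70.1 and 67.3 at P0, 42.0, 42.3 and 46.6 at P14 and 35.5, 32.5 and 34.8 at A6m. No ages overlapped, and the log2 difference was -2.90 (SE 0.08, adjusted p = 2.09e-09) from E12.5 to P0 and -3.94 (SE 0.08, adjusted p = 4.01e-11) from E12.5 to A6m. Beside Tubb5, the summed TPM of 10 proliferation markers such as Mki67 and Top2a was 952 to 1026 at E12.5, then 119 to 123 at P0, 25.7 to 31.7 at P14 and 11.8 to 15.6 at A6m, and its part in the fall was not tested.

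Tubb2a and Tubb2b, the near-identical pair best known from neurons, both fell. Tubb2a had 71.5, 72.9 and 64.3 TPM at E12.5, 21.1, 16.9 and 17.3 at P0, 11.6, 14.9 and 15.3 at P14 and 8.52, 8.16 and 10.1 at A6m, with no overlap between ages. Its log2 difference was -1.86 (SE 0.12, adjusted p = 3.46e-07) from E12.5 to P0 and -2.83 (SE 0.12, adjusted p = 3.93e-09) from E12.5 to A6m. Tubb2b had 163, 259 and 174 TPM at E12.5, 24.1, 10.9 and 9.61 at P0, 1.79, 6.70 and 2.75 at P14 and 0.722, 0.673 and 1.13 at A6m. E12.5 replicate 2, P0 replicate 1 and P14 replicate 2 were each the highest of their age, and the ages did not overlap. The log2 difference was -3.74 (SE 0.39, adjusted p = 1.04e-05) from E12.5 to P0, -1.77 (SE 0.39, adjusted p = 0.00286) from P0 to P14 and -6.74 (SE 0.39, adjusted p = 3.53e-08) from E12.5 to A6m. From P14 to A6m it was -1.24 (SE 0.39, adjusted p = 0.0457), a call that was lost in 11 of 20 alternatives, among them without P14 replicate 2, at -0.82 with adjusted p = 0.153.

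Tubb3, the beta-tubulin used as a marker of neurons, had 7.54, 51.0 and 18.5 TPM at E12.5, 6.10, 2.62 and 1.30 at P0, 1.14, 2.52 and 0.727 at P14 and 0.629, 0.418 and 0.519 at A6m. The E12.5 libraries lay above the rest but spread widely, and P0 overlapped with P14. The log2 difference was -2.40 (SE 0.58, adjusted p = 0.00401) from E12.5 to P0 and -3.76 (SE 0.58, adjusted p = 1.09e-04) from E12.5 to A6m. Without E12.5 replicate 2 these were -1.73 (adjusted p = 0.0120) and -3.09 (adjusted p = 0.000220). The summed TPM of 12 neuron markers without Tubb3, among them Stmn2, Snap25 and Dcx, was 30.2, 155 and 75.6 at E12.5, 39.1, 22.8 and 24.9 at P0, 25.8, 50.5 and 24.7 at P14, and 14.5, 14.3 and 16.2 at A6m. The same libraries, E12.5 replicate 2, P0 replicate 1 and P14 replicate 2, were thus highest of their age for neuron markers, Tubb3 and Tubb2b. They were also highest of their age for the summed markers of neural progenitors and glia, at 371, 154 and 101 TPM. Of 11 tested neuron markers, 4 fell and 1 rose from E12.5 to P0, where 43.7% and 18.6% of all genes did. From P0 to P14, 0 fell and 1 rose, beside 53.5% and 5.33%. From E12.5 to A6m, 8 fell and 1 rose, beside 62.0% and 15.2%. With scaling, 7 fell and 2 rose over that interval, beside 35.8% and 35.4%. None of the 12 neuron markers was at 0 in all libraries of an age, and 9 had a mean under 1 TPM at A6m. Tuba1a was also highest of its age in these 3 libraries, and without E12.5 replicate 2 its difference from E12.5 to A6m was -2.53. Tubb2b kept -6.53 for that difference without the same library. The part of neurons, or of neural progenitors and glia, in the values of these genes was not tested.

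**Figure D3:**
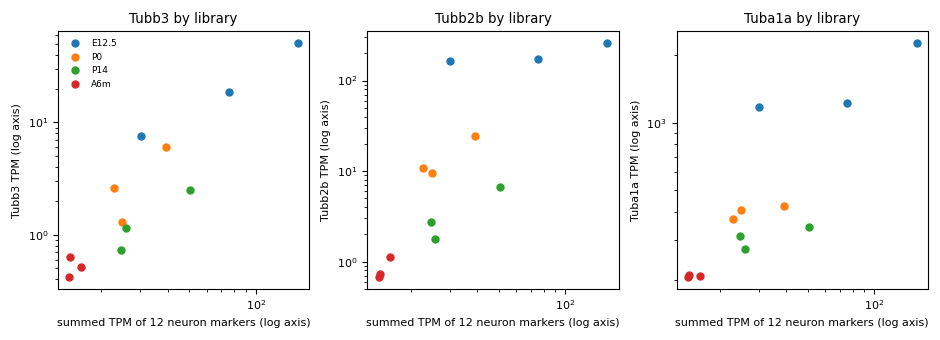
TPM of Tubb3, Tubb2b and Tuba1a against the summed TPM of 12 neuron markers, on log axes; each point is a library, coloured by age. The E12.5 library with a marker sum of 155 is the highest point in all 3 panels.

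Of the remaining beta-tubulins, Tubb6, a broadly expressed minor isotype, had 44.2, 43.6 and 31.6 TPM at E12.5, 3.17, 2.83 and 3.74 at P0, 2.50, 2.57 and 2.92 at P14 and 1.14, 1.55 and 1.69 at A6m. Its E12.5 libraries were all far above the later ones, with a log2 difference of -3.25 (SE 0.15, adjusted p = 2.95e-08) from E12.5 to P0 and -4.04 (SE 0.15, adjusted p = 1.08e-09) from E12.5 to A6m. Tubb1, the beta-tubulin of platelets and their precursors, had 21.5, 15.1 and 19.9 TPM at E12.5, 0.379, 0.420 and 0.577 at P0, 0.0502, 0 and 0.0393 at P14 and 0.0989, 0 and 0 at A6m. It entered the test through its E12.5 libraries alone, so these levels are given as a description. The summed TPM of 8 platelet and megakaryocyte markers such as Pf4 moved alongside, at 247 to 362 at E12.5, then 28.2 to 37.1 at P0, 9.42 to 13.6 at P14 and 3.91 to 5.31 at A6m, and their part in the Tubb1 values was not tested. Tubb4a, a beta-tubulin of brain, had 5.54, 13.1 and 8.07 TPM at E12.5, 11.7, 9.54 and 10.6 at P0, 14.6, 15.4 and 11.6 at P14 and 12.1, 11.2 and 12.04 at A6m. These ages overlapped and the log2 difference from E12.5 to A6m was 0.44 (SE 0.22, adjusted p = 0.0946), while with scaling it was 1.21 (adjusted p = 1.99e-04).

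Shares within a library do not depend on its scaling, so they are given beside the levels. Summed alpha-tubulin was 2563 ± 654 TPM at E12.5, then 980.4 ± 43.9 TPM at P0, 941 ± 59.6 TPM at P14 and 776 ± 17.8 TPM at A6m (mean ± SD, n = 3, as for the shares below). Tuba1a made up 59.4% ± 7.71 of it at E12.5, then 41.0% ± 1.15 at P0, 32.9% ± 2.27 at P14 and 26.7% ± 0.325 at A6m. Tuba1b went from 37.7% ± 6.95 at E12.5 to 52.5% ± 0.388 at A6m. Since these 2 cannot be separated with certainty, their joint share is the safer value, 97.1% ± 0.761 at E12.5, then 90.2% ± 0.459 at P0, 84.0% ± 0.727 at P14 and 79.2% ± 0.146 at A6m. Tuba1c took 1.81% ± 0.547 at E12.5 and 11.9% ± 0.380 at A6m. Tuba4a took 1.09% ± 0.206 at E12.5, then 1.71% ± 0.215 at P0, 5.45% ± 0.218 at P14 and 8.89% ± 0.299 at A6m.

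The mean share of Tubb4b in beta-tubulin was higher at each age than at the one before. Summed beta-tubulin was 1304 ± 126 TPM at E12.5, then 420.0 ± 30.9 TPM at P0, 519 ± 23.2 TPM at P14 and 482 ± 19.0 TPM at A6m. Tubb4b made up 30.9% ± 4.17 of it at E12.5, then 70.9% ± 2.99 at P0, 84.7% ± 1.38 at P14 and 88.0% ± 0.399 at A6m. Tubb5 went from 41.6% ± 0.895 to 7.11% ± 0.0833 and Tubb2b from 15.1% ± 2.52 to 0.175% ± 0.0515 between the same ages. The lowest Tubb4b share at P0, 68.0%, lay above the highest at E12.5, 34.8%. Relative to the printed sequences, the beta-tubulin transcripts at P0 and later came mostly from the gene with 10 glutamate codons among its last 20. No test was made on shares, since the members were chosen with earlier results of these data known.

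**Figure D4:**
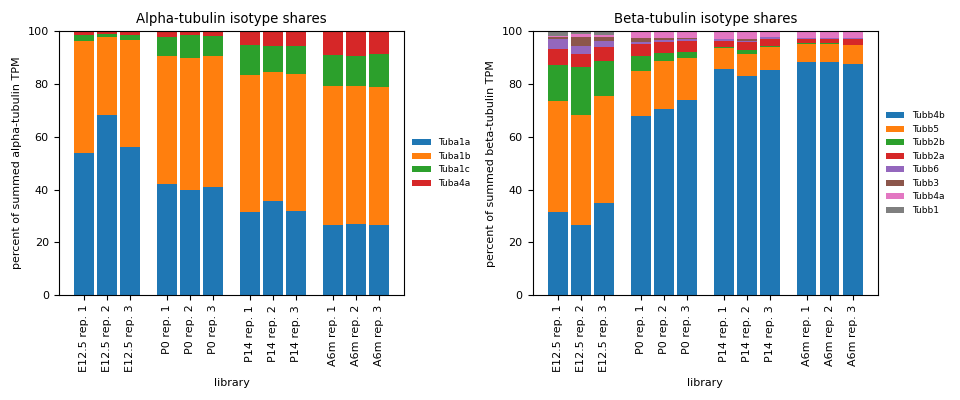
Share of each isotype in the summed TPM of alpha-tubulin (left) and beta-tubulin (right) genes, in percent, as stacked bars for each of the 12 libraries. Tubb4b grows from 26.5% to 34.8% of beta-tubulin at E12.5 to 87.5% to 88.2% at A6m, and Tuba1c with Tuba4a from 2.05% to 3.48% of alpha-tubulin to 20.7% to 20.9%.

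All 4 tubulins of centrosomes and centrioles were lower at P0 than at E12.5, also with scaling, where 43.7% of all genes were lower as deposited and 31.0% with scaling. Tubg1, the gamma-tubulin that nucleates microtubules, had 26.5, 36.7 and 29.0 TPM at E12.5, 14.5, 14.8 and 15.0 at P0, 14.3, 15.1 and 15.9 at P14 and 16.7, 14.6 and 15.3 at A6m. The later ages overlapped and lay below E12.5 as deposited, with a log2 difference of -0.99 (SE 0.11, adjusted p = 1.37e-05) from E12.5 to P0 and -0.93 (SE 0.11, adjusted p = 1.07e-05) to A6m. With scaling Tubg1 was higher at P14 than at P0, by 0.51 (adjusted p = 0.00145), and its difference from E12.5 to A6m, -0.11, was not called (adjusted p = 0.323). Tube1, the epsilon-tubulin needed for triplet microtubules of centrioles, had 16.8, 14.3 and 16.6 TPM at E12.5, 2.37, 2.83 and 2.01 at P0, 1.18, 1.08 and 1.32 at P14 and 0.733, 0.596 and 0.868 at A6m. The ages did not overlap, with log2 differences of -2.32 (SE 0.12, adjusted p = 7.06e-08) from E12.5 to P0 and -3.29 (SE 0.12, adjusted p = 1.19e-09) from E12.5 to A6m. Tubd1, the delta-tubulin of the same structure, went from a mean of 5.75 ± 0.216 to 1.99 ± 0.180 TPM between E12.5 and A6m, a log2 difference of -1.18 (SE 0.10, adjusted p = 8.29e-07). Tubg2, the second gamma-tubulin gene, had low means of 1.27 ± 0.384, 0.493 ± 0.207, 0.342 ± 0.0670 and 1.89 ± 0.483 TPM in order of age and rose from P14 to A6m, by 1.09 (SE 0.17, adjusted p = 0.00127). The summed TPM of 10 regulators of multiciliated cells, among them Gmnc, Mcidas and Deup1, was 709 to 855 at E12.5, then 293 to 302 at P0, 162 to 171 at P14 and 125 to 127 at A6m.

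The polyglutamylases, which add glutamate chains to tubulin tails, did not all move in 1 direction. Of 8 tested, 6 fell and Ttll7 rose from E12.5 to A6m (62.0% of all genes fell and 15.2% rose), and with scaling 3 fell and 2 rose (35.8% and 35.4%), so the counts lay near those of all genes. Ttll7, which acts mainly on beta-tubulin, had 5.95, 8.38 and 9.41 TPM at E12.5, 14.2, 18.5 and 14.8 at P0, 9.17, 7.69 and 9.06 at P14 and 25.9, 25.3 and 24.2 at A6m. It rose, fell and rose again, without overlap between consecutive ages, and the log2 difference was 1.44 (SE 0.15, adjusted p = 6.66e-05) from P14 to A6m and 1.57 (SE 0.15, adjusted p = 1.81e-06) from E12.5 to A6m. Ttll5, which starts glutamate chains, had 42.8, 68.7 and 74.4 TPM at E12.5, 42.4, 44.9 and 48.7 at P0, 53.4, 53.3 and 50.7 at P14 and 68.9, 65.7 and 68.3 at A6m. E12.5 replicate 1 lay among the P0 libraries, the later ages climbed without overlap, and the log2 difference from E12.5 to A6m was 0.16 (SE 0.16, adjusted p = 0.372) as deposited and 1.01 with scaling (adjusted p = 6.94e-06). Ttll5 was the most abundant of the 13 Ttll genes by mean at all 4 ages.

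Ttll4, another enzyme that starts chains, had 29.8, 36.3 and 51.2 TPM at E12.5, 23.9, 24.5 and 24.1 at P0, 14.7, 12.8 and 14.8 at P14 and 15.4, 14.6 and 17.3 at A6m. The ages to P14 did not overlap, and the log2 difference from E12.5 to A6m was -1.23 (SE 0.16, adjusted p = 2.40e-05) as deposited and -0.40 with scaling. Ttll1, the catalytic subunit of a polyglutamylase complex that works in cilia and brain, had 16.1, 17.9 and 16.1 TPM at E12.5, 12.04, 10.97 and 9.32 at P0, 7.77, 7.68 and 8.59 at P14 and 11.1, 9.55 and 10.8 at A6m. It was lowest at P14, and the log2 difference was 0.35 (SE 0.10, adjusted p = 0.0333) from P14 to A6m. Ttll9, a polyglutamylase of cilia and flagella, had 22.4, 20.2 and 25.2 TPM at E12.5, 19.9, 17.9 and 17.0 at P0, 8.80, 10.2 and 9.64 at P14 and 11.2, 8.50 and 10.3 at A6m, and its log2 difference was -1.11 (SE 0.11, adjusted p = 3.92e-06) from E12.5 to A6m. P14 and A6m overlapped and lay below both younger ages. Ttll6, which lengthens chains, had 7.97, 11.4 and 12.1 TPM at E12.5, 7.91, 7.06 and 6.19 at P0, 2.84, 2.58 and 3.19 at P14 and 4.92, 3.10 and 4.19 at A6m. It fell to P14 and P14 overlapped with A6m, with -1.05 (SE 0.17, adjusted p = 4.58e-04) from P0 to P14 and -1.18 (SE 0.17, adjusted p = 6.95e-05) from E12.5 to A6m. Ttll11 and Ttll13, which also lengthen chains, stayed at or under 3.46 and 4.41 TPM and fell from P0 to P14, with log2 differences of -0.94 (adjusted p = 0.00264) and -0.82 (adjusted p = 0.00410).

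**Figure D5:**
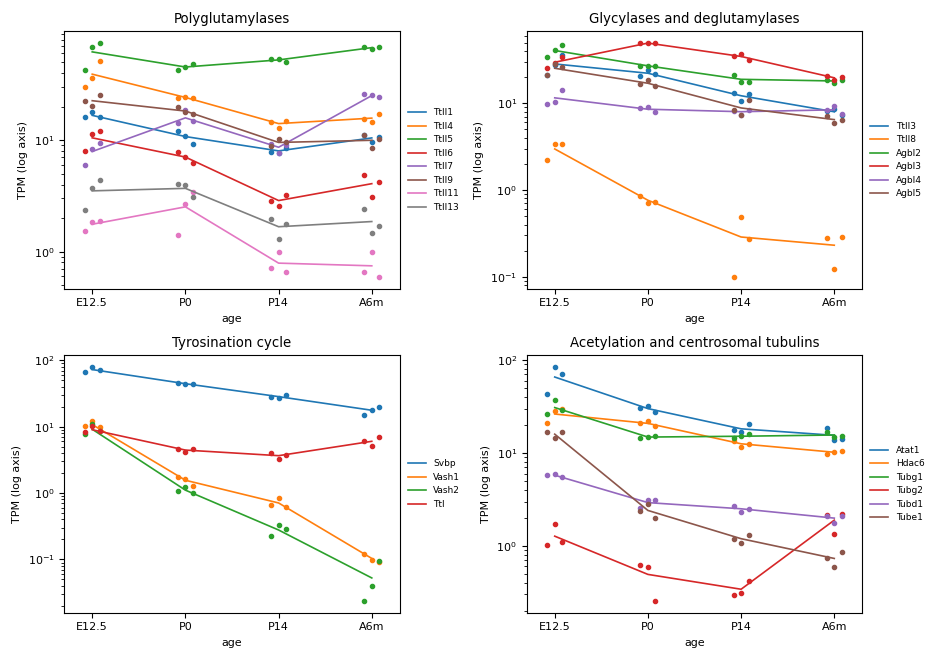
TPM of the tested modifying enzymes and of the gamma-, delta- and epsilon-tubulins by age, on log axes; points are libraries and lines join the means of 3 libraries. The means of Vash1, Vash2, Ttll8, Ttll11 and Tube1 fall below 1 TPM, and that of Tubg2 is below it at P0 and P14. Agbl3 peaks at P0 as deposited and Ttll7 is highest at A6m.

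Of the glycylases, which attach glycine to tubulin of cilia, Ttll3 fell. This enzyme, which starts glycine chains, had 21.3, 27.4 and 36.3 TPM at E12.5, 20.7, 23.8 and 21.9 at P0, 13.2, 10.5 and 12.8 at P14 and 8.19, 8.47 and 7.26 at A6m. E12.5 and P0 overlapped and the later ages stepped down without overlap, with a log2 difference of -1.68 (SE 0.16, adjusted p = 2.31e-06) from E12.5 to A6m. Ttll8, the other initiating glycylase, had means of 2.97 ± 0.679, 0.763 ± 0.0843, 0.288 ± 0.198 and 0.231 ± 0.0937 TPM in order of age, a description only, since it entered the test through E12.5 alone. Ttll10, which lengthens glycine chains, was at most 1.16 TPM in any library. Ttll12, a family member that acts in neither of these reactions as far as is known, had 16.0, 19.4 and 18.5 TPM at E12.5, 10.9, 10.4 and 10.8 at P0, 8.02, 7.15 and 8.53 at P14 and 9.27, 7.61 and 8.78 at A6m. It lay lower at all later ages, with a log2 difference of -0.69 (SE 0.10, adjusted p = 1.17e-04) from E12.5 to P0, and Ttll2 was at most 0.103 TPM.

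Among the 4 tested deglutamylases, which shorten the chains, Agbl3 had its highest level at P0 and the other 3 at E12.5 as deposited, while with scaling Agbl3 differed by 0.00 from P0 to P14. Agbl3 had 25.7, 28.8 and 34.4 TPM at E12.5, 49.4, 49.3 and 49.2 at P0, 34.7, 37.3 and 31.7 at P14 and 20.5, 18.6 and 19.8 at A6m. All P0 libraries lay above every other library, the ages next to each other did not overlap, and the log2 difference was 0.72 (SE 0.10, adjusted p = 7.77e-05) from E12.5 to P0 and -0.78 (SE 0.10, adjusted p = 2.80e-04) from P14 to A6m. From E12.5 to A6m Agbl3 differed by -0.56 (SE 0.10, adjusted p = 2.94e-04) as deposited and by 0.26 with scaling, a reversal. Agbl2, which is found at cilia and centrioles, had 33.8, 40.9 and 46.8 TPM at E12.5, 26.7, 27.2 and 26.9 at P0, 21.4, 17.6 and 17.5 at P14 and 18.4, 17.2 and 18.5 at A6m, with a log2 difference from E12.5 to A6m of -1.11 (SE 0.11, adjusted p = 3.26e-06) as deposited and -0.29 with scaling. Agbl5, which removes the glutamate at the branch point of a chain, had 21.4, 28.2 and 26.2 TPM at E12.5, 16.6, 18.4 and 15.9 at P0, 8.25, 7.37 and 10.9 at P14 and 7.08, 5.96 and 6.39 at A6m. The ages followed each other down without overlap, with a log2 difference of -1.81 (SE 0.14, adjusted p = 3.62e-07) from E12.5 to A6m. With scaling that difference was -1.02. The step from P14 to A6m was not called as deposited (-0.38, adjusted p = 0.0809) but was with scaling (-0.34, adjusted p = 0.0345). The step from E12.5 to P0 was not called with scaling (-0.26, adjusted p = 0.0531). Agbl4, another chain-shortening enzyme, had 9.80, 10.4 and 14.4 TPM at E12.5, 8.74, 8.96 and 7.88 at P0, 8.16, 7.33 and 8.46 at P14 and 8.28, 9.34 and 7.57 at A6m, with -0.40 (SE 0.13, adjusted p = 0.0172) from E12.5 to A6m as deposited and 0.37 with scaling, again a reversal. Agbl1 stayed at or under 0.0845 TPM.

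Vash1 and Vash2, the members that remove the terminal tyrosine as carboxypeptidases, were each at or under 0.121 TPM in every A6m library. Ttl, the ligase that restores this tyrosine, had a mean of 6.01 TPM there. Vash1 had 10.2, 12.1 and 9.87 TPM at E12.5, 1.77, 1.64 and 1.27 at P0, 0.654, 0.856 and 0.618 at P14 and 0.121, 0.0992 and 0.0911 at A6m. Vash2 had 7.75, 10.9 and 8.74 TPM at E12.5, 1.09, 1.23 and 1.01 at P0, 0.226, 0.325 and 0.283 at P14 and 0.0237, 0.0394 and 0.0950 at A6m. Neither had any overlap between ages. The log2 differences of Vash1 were -2.20 (SE 0.12, adjusted p = 9.92e-08) from E12.5 to P0 and -3.41 (SE 0.12, adjusted p = 9.36e-10) from E12.5 to A6m. Those of Vash2 were -2.26 (SE 0.13, adjusted p = 1.21e-07) and -3.26 (SE 0.13, adjusted p = 1.86e-09) over the same intervals. Vash1 is known mainly from endothelium, and the summed TPM of 7 endothelial markers was 347 to 393 at E12.5, then 200.4 to 268 at P0, 78.9 to 106 at P14 and 22.3 to 35.1 at A6m. Its part in the Vash1 values was not tested.

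Svbp, the small protein that both Vash enzymes need, had 67.4, 79.0 and 70.5 TPM at E12.5, 45.8, 44.0 and 43.1 at P0, 28.2, 27.1 and 29.6 at P14 and 15.1, 17.9 and 19.9 at A6m. It fell at every step as deposited, without overlap, with -1.98 (SE 0.10, adjusted p = 8.25e-09) from E12.5 to A6m. With scaling that difference was -1.15, and the step from P0 to P14, -0.13, was not called (adjusted p = 0.374). Ttl had means of 8.99 ± 1.09, 4.44 ± 0.275, 3.65 ± 0.408 and 6.01 ± 0.846 TPM. It fell from E12.5 to P0, with a log2 difference of -0.87 (adjusted p = 8.77e-05), and rose from P14 to A6m, with 0.59 (adjusted p = 0.00585). With scaling these differences were -0.60 and 0.66.

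Atat1, which acetylates alpha-tubulin, and Hdac6, which removes the acetyl group, both fell. Atat1 had 42.8, 83.8 and 69.7 TPM at E12.5, 30.6, 31.5 and 27.7 at P0, 17.5, 16.7 and 20.2 at P14 and 18.3, 13.9 and 14.1 at A6m. The E12.5 libraries spread widely but lay above all others, and P14 overlapped with A6m. Its log2 difference was -1.05 (SE 0.20, adjusted p = 9.85e-04) from E12.5 to P0 and -1.97 (SE 0.20, adjusted p = 4.19e-06) from E12.5 to A6m. Hdac6 had 20.7, 28.4 and 29.4 TPM at E12.5, 20.8, 22.3 and 19.3 at P0, 13.5, 11.5 and 12.54 at P14 and 9.81, 10.2 and 10.5 at A6m, with E12.5 replicate 1 among the P0 values. The log2 difference from E12.5 to A6m was -1.27 (SE 0.12, adjusted p = 2.16e-06) as deposited and -0.46 (adjusted p = 1.07e-04) with scaling. Hdac6 lies on the X chromosome, and the part of sex in its values was not tested.

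The 250 bases before the gene start were searched for a motif of ciliary genes, the X-box bound by RFX factors, in RefSeq promoter windows (GRCm38.p6) matched to 38 members. The half-site GTTGCC, on either strand, was present in 11 of 46 member windows, or 23.9%, against 10.4% of 32851 windows of all genes. The members that held it were Agbl2, Agbl3, Atat1, Ttll3, Ttll5, Ttll8, Ttll9, Ttll10, Tuba1c and Tuba8. Windows of a gene can overlap, and those of Atat1 held the same half-site, which entered the count with each window. A full X-box, GTTNCC followed by GGNAAC with up to 3 bases between them and overlapping the half-sites, was present in 0.673% of all windows and, of the 38 matched members, in Agbl3 alone. The forkhead motif GTAAACA, on either strand, was present in Agbl5, Ttll10 and Tubg2 and in 3.17% of all windows. The last 60 bases before the start are shown for Agbl3, whose mean TPM was highest at P0, and for Ttll9, with the X-box or half-site in capitals.
Agbl3, chr6:34780372-34780431, plus strand: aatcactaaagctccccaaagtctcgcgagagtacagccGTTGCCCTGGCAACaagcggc
Ttll9, chr2:152962425-152962484, plus strand: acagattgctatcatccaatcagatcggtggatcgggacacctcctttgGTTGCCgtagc
These matches describe the letters of the windows only.

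Other microtubule genes, in lists chosen with earlier results known, are given for E12.5 to A6m, where 62.0% of all genes fell and 15.2% rose as deposited and 35.8% fell and 35.4% rose with scaling. Of 21 genes of tubulin folding, which includes the CCT chaperonin and the tubulin cofactors, 18 fell and 3 rose from E12.5 to A6m, and 9 fell and 4 rose with scaling. Cct5 differed by -1.65 (adjusted p = 1.50e-09) and Cct3 by -1.56 (adjusted p = 1.83e-09), while Tbcel rose by 1.83 (adjusted p = 3.98e-08). Of 10 genes of the gamma-tubulin ring complex and its partners, 9 fell, and 7 fell with 3 rising after scaling; Nedd1, which brings the complex to the spindle, differed by -2.17 (adjusted p = 1.09e-08), Pcnt by -1.56 (adjusted p = 7.40e-06) and Tubgcp2 by -1.53 (adjusted p = 2.07e-06). All 9 genes of microtubule severing fell, against 4 fallen and 1 risen with scaling, with Fignl1 at -4.25 (adjusted p = 1.63e-10), Fign at -2.12 (adjusted p = 2.28e-07) and Fignl2 at -1.52 (adjusted p = 2.48e-07).

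Of 27 stathmins and microtubule-associated proteins, 17 fell and 3 rose, and 13 fell and 8 rose with scaling. Stmn1, which sequesters tubulin dimers, differed by -5.19 (adjusted p = 5.47e-10), Map6 by -2.78 (adjusted p = 2.93e-06) and Dcx, a neuronal microtubule protein, by -2.40 (adjusted p = 0.00241). The next list held 8 measured genes, namely partners of the modifying enzymes and enzymes outside the symbols used, such as Agtpbp1. Of these, 5 fell and none rose as deposited, whereas 2 fell and 4 rose with scaling. Lrrc49 and Tpgs2, subunits of the complex that holds Ttll1, differed by -1.45 (adjusted p = 5.74e-07) and -0.77 (adjusted p = 1.08e-04). Cep41, a ciliary protein linked to tubulin glutamylation, differed by -0.85 (adjusted p = 1.37e-06). With scaling the differences were -0.65 for Lrrc49, 0.01 for Tpgs2 and -0.02 for Cep41. The gene model 4931428F04Rik of the same list, outside the naming rule and chosen after its values were seen, had the largest difference of the list, -2.47 (adjusted p = 1.37e-07), and -1.91 with scaling. Of 23 measured genes of the motile axoneme, 21 fell from E12.5 to A6m and 16 fell with scaling, where 3 rose. Ccdc40, Dnah7a and Spag17 differed by -4.91 (adjusted p = 5.92e-10), -4.62 (adjusted p = 1.02e-08) and -3.72 (adjusted p = 2.63e-09). The axoneme list summed to 1602 to 2304 TPM at E12.5 and 731 to 778 at A6m.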

How the data were processed

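The authors deposited 1 table of TPM values, transcript abundances per gene symbol computed with kallisto on GRCm38 per the submitters' processing notes. The version, annotation release and step from transcripts to genes are not given in the sources used here. TPM carry no read counts, so depth is unknown and no count model was used. A further 7 columns were not mapped to samples and not used.

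Genes with at least 1 TPM in at least 3 of 12 libraries (17422) were tested as log2(TPM + 1) with limma 3.58.1 in R 4.3.3 (4 age means, 8 residual degrees of freedom, intensity-dependent prior). P-values were adjusted over all genes tested, and calls are at adjusted p under 0.05. All log2 differences are on this scale, which understates changes of genes near 1 TPM. Scripts were tested on simulated data. The alternatives were median-of-ratios scaling over 19075 genes above 0 in all libraries, rescaling without the 10 most abundant genes, pseudocounts of 0.1 and 5, other filters, 6 libraries only, the replicate number as a block, and each library left out. Same-numbered libraries did not deviate together, so the block was not used in the main test.

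Members and lists were chosen with earlier results of these data known. Library values are given for members with an age mean of at least 10 TPM and, chosen after their values were seen, for Tuba8 at E12.5 and Vash2. Differences are given for called members with an absolute log2 difference of at least 1 and for 1 or more comparisons of the others with library values. Lists of other microtubule genes name up to 3 called genes with the largest difference from E12.5 to A6m, unnamed gene models left out. Coordinates and coding ends come from GENCODE M21 (43 members matched; some coding ends are not reported here) and promoters from RefSeq. Figures were drawn with matplotlib 3.10.9.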

Additional observations from a re-analysis of the deposited data

How the results depend on the processing

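Counts of members called were within 1.5 times the reported number except as follows. From P0 to P14, 8 members were higher with median-of-ratios scaling, and 5 without the 10 most abundant genes and with only the 6 libraries compared, against 3, and 10 were lower with scaling against 23. From E12.5 to A6m, 9 were higher with scaling and 7 without the 10 most abundant genes, against 3. From P14 to A6m, 5 were lower with a pseudocount of 5, against 9. Leaving out 1 library gave 3 to 6 members higher and 4 to 12 lower from P14 to A6m, with the fewest lower without P14 replicate 3 (4) and A6m replicate 2 (5) and the fewest higher without P14 replicate 1 or A6m replicate 1 (3 each). It gave 3 to 5 higher from E12.5 to A6m, the most without E12.5 replicate 2. The scaling shifts all genes relative to the deposited TPM, and the cause of the other changes was not tested. With the replicate block, members higher and lower were 3 and 28 from E12.5 to P0, 3 and 23 from P0 to P14, 4 and 7 from P14 to A6m, and 3 and 30 from E12.5 to A6m; the replicate numbers name libraries and did not pair them, with correlations of same-numbered deviations from -0.064 to 0.072.

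Leaving out Tubb1 and Ttll8, chosen after seeing the data, kept each count within 1.5 times. Of 43 differences that were called and at least 1 on the log2 scale, 4 of them of Tubb1 and Ttll8, none changed direction in any of 20 alternatives, and 42 stayed called where they could be fitted. Tubb2b from P14 to A6m lost its call in 11 alternatives, with adjusted p = 0.225 at a pseudocount of 5. Leaving out 1 library, the mean share of Tuba1a in alpha-tubulin at E12.5 ranged from 55.0% to 62.1%, against 59.4%, with the lowest value without E12.5 replicate 2, and that of Tubb4b in beta-tubulin at E12.5 from 28.9% to 33.1%, against 30.9%. Depth is unknown in TPM, so values below about 1 TPM, such as those of Vash2 and Tubb1 at A6m, have no stated precision.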
